A study of Mus musculus with 6 samples.

Results

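The 10 antioxidant enzyme genes Sod1, Sod2, Cat, Gpx1, Gpx4, Prdx1, Nqo1, Hmox1, Gclc and Txnrd1 were followed in RNA-seq of mouse cochleae, the coiled part of the inner ear that senses sound. They were chosen by name, each symbol was matched to 1 Ensembl gene ID, and they are 10 of 55769 features in the files. All 10 passed the filter of at least 1 TPM in at least 3 libraries, as did 17097 features in all. TPM corrects for transcript length and gives every library the same total, so levels of different genes can be set side by side, but read depth is not kept.

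Cochleae were taken on postnatal day 3 from mice of the genotype Plscr5-/- (3 libraries) and from wild-type mice (3 libraries). Plscr5 encodes a phospholipid scramblase, one of a family named for moving lipids from one face of a membrane to the other. The labels do not give the strain, the sex, the altered part of the gene or the number of animals per library, so nothing says that the libraries are separate animals, and p-values measure only how these libraries differ, which may be technical. The extraction text names a Pou4f3 heterozygous line that no library carries in its genotype label.

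Plscr5 itself stood at 4.33 ± 0.66 TPM in Plscr5-/- libraries and at 12.1 ± 2.6 TPM in wild-type libraries (SD, n = 3 each), without overlap (log2 fold change -1.28, adjusted limma p 0.29), and the altered region is not in the labels, so this level checks the genotype only in part. Across genes, which are not independent replicates, Pearson r ranged from 0.9635 to 0.9852 over pairs of libraries. The cochlear markers were present. Summed hair cell markers were at 432 to 485 TPM in Plscr5-/- libraries and 474 to 527 TPM in wild-type libraries. Tectb of the tectorial membrane was at 3587 to 3829 TPM in Plscr5-/- libraries and at 4001 to 4754 TPM in wild-type libraries. Tectb was picked with its values known. Summed supporting cell and tectorial membrane markers were at 7987 to 8290.1 TPM in Plscr5-/- libraries and 8698 to 10368 TPM in wild-type libraries. Summed Schwann cell markers were at 1532 to 2344 TPM in Plscr5-/- libraries and 556 to 1512 TPM in wild-type libraries, with wild type replicate 3 lowest. In bulk tissue, fewer cells of a type and less RNA per cell cannot be told apart.

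Cells make superoxide and hydrogen peroxide as by-products of respiration and other oxidations. Superoxide dismutases turn superoxide into hydrogen peroxide, which catalase, glutathione peroxidases and peroxiredoxins then remove. The glutathione peroxidases and peroxiredoxins draw on glutathione and thioredoxin, which are kept reduced with NADPH. Several of the genes are induced by the transcription factor NRF2 through the antioxidant response element, a short DNA sequence in their regulatory regions. In the cochlea these enzymes are studied for their part in protecting hair cells and neurons against noise and ototoxic drugs.

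The antioxidant response element core was searched in the RefSeq promoter windows (GRCm38.p6, 250 bases before to 50 after each start) to show which of these genes hold it next to a start site. The letters searched were TGACNNNGC on both strands. Of the 10 genes 8 were matched in the table, with 13 windows between them, and Hmox1 and Gclc were not. The core was found in 3 of the 13 windows, once each for Sod1, Prdx1 and Txnrd1, and in 12.4% of all 32851 windows. These 3 stretches are shown because they are the matches, 5′ to 3′ along the gene, with the core in capitals, and each match lies on the strand opposite to the gene.
Sod1, chr16:90220670-90220750, + strand: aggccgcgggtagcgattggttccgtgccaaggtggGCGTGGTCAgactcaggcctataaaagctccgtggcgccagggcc
Prdx1, chr4:116685430-116685510, + strand: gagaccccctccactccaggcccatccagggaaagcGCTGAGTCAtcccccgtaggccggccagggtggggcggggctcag
Txnrd1, chr10:82859078-82859158, + strand: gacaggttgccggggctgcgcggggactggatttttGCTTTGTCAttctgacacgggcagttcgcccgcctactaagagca
The match began 56 bases before the start in Sod1, 133 in Prdx1 and 92 in Txnrd1, where it belonged to 1 of 3 start sites. The Prdx1 match also holds the AP-1 motif TGACTCA, which with its variant TGAGTCA, the same site read on the other strand, was in 5.2% of all windows. A match is a description of these letters and not a bound site.

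The members spanned a 56.2-fold range of levels, and their order was nearly the same in every library. Sod1 was highest at 757 ± 38.7 TPM over the 6 libraries, followed by Gpx4 at 364 ± 8.5 TPM, Prdx1 at 334 ± 20.8 TPM and Gpx1 at 157 ± 9.95 TPM. Sod2 at 105 ± 5.9 TPM, Cat at 92.1 ± 2.8 TPM and Txnrd1 at 64.0 ± 4.6 TPM came next, and Gclc at 20.8 ± 1.5 TPM, Nqo1 at 14.2 ± 1.6 TPM and Hmox1 at 13.5 ± 1.6 TPM were lowest. The ranges over libraries of neighbours in this order were apart for 7 of 9 pairs. Those of Sod2 and Cat overlapped, with Sod2 higher in 5 of 6 libraries, as did those of Nqo1 and Hmox1, with Nqo1 higher in 4 of 6. Sod1 made up between 37.7% and 40.2% of the summed level of the 10 genes in each library. That sum was 1934 ± 78.6 TPM in Plscr5-/- libraries and 1911 ± 51.2 TPM in wild-type libraries (SD, n = 3 each).

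**Figure D1:**
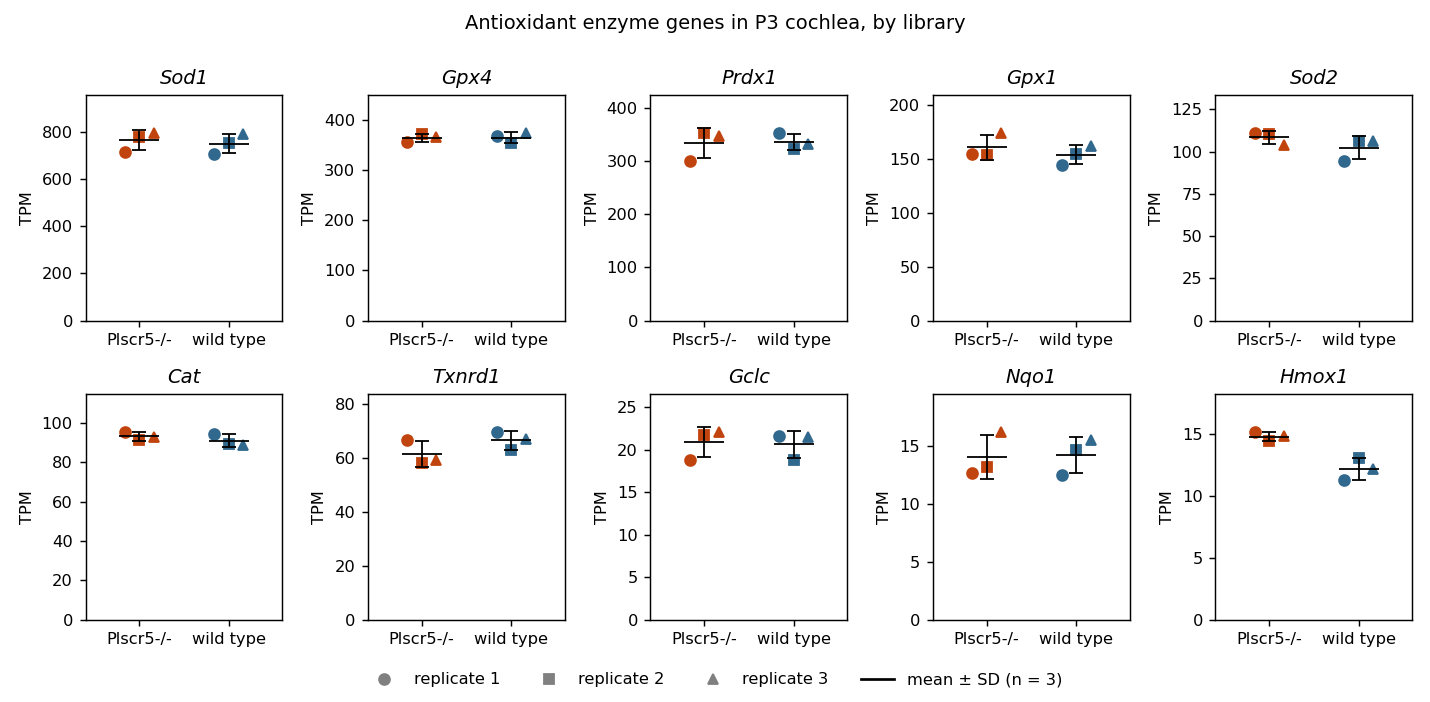
Level of each gene in TPM (vertical axes, each from 0) in the 3 Plscr5-/- libraries (left, orange) and the 3 wild-type libraries (right, blue), with marker shape for the replicate number and bars for the mean ± SD. The genotypes overlap in 9 of the 10 panels, and in the Hmox1 panel the Plscr5-/- values lie above all wild-type values.

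None of the 10 genes passed the test between genotypes. In limma, fitted over all 17097 features with Benjamini-Hochberg adjustment, their adjusted p ran from 0.989 to 0.998, and 0.0117% of all features were called at an adjusted p under 0.05. By unadjusted limma p under 0.05 there was 1 of the 10, Hmox1, against 4.0% of all features. At 1 of the 10, again Hmox1, the genotypes did not overlap, against 9.33% of all features, so neither count stands off from the background. The median log2 fold change of the members was 0.02, with 6 positive and 4 negative, against -0.01 over all features, of which 46.6% were positive. Fold changes are given for Plscr5-/- over wild type as differences of log2(TPM + 1), and the added 1 makes them too small for low genes.

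The differences were small and closely bounded. At 8 of the 10 genes both ends of the 95% confidence interval were nearer to no change than 1.25-fold, the exceptions being Hmox1 and Nqo1. Among the 9250 features whose mean lay within the range of the members, 50.2% had an interval that narrow. They were not matched to the members by level within that range. The part of level in this contrast and in those of the next sentence was not tested. The median absolute log2 fold change was 0.03 for the members and 0.07 for those features, and the median spread within genotypes, as SD of log2(TPM + 1), was 0.09 for the members and 0.12 for those features. A p that misses the threshold does not show that levels were equal, and the intervals give the sizes that remain possible. The sign of the fold change was kept in all 14 alternative settings by Sod2, Cat, Gpx1, Hmox1 and Txnrd1, and changed in at least 1 of them, upper quartile scaling included for Gpx4 and Prdx1, by Sod1, Gpx4, Prdx1, Gclc and Nqo1.

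**Figure D2:**
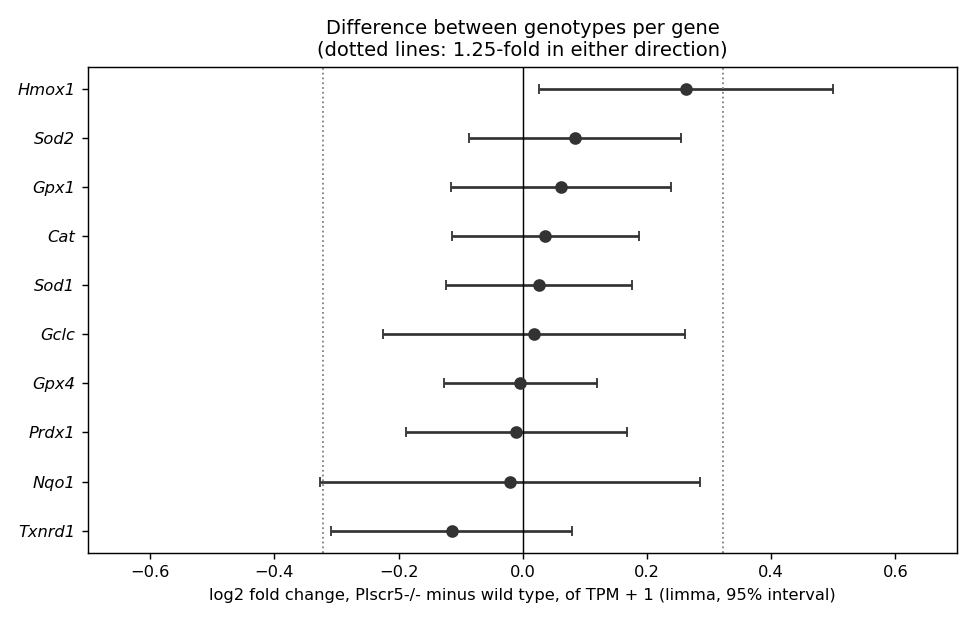
Log2 fold change of TPM + 1 between Plscr5-/- and wild-type libraries (horizontal axis) for each gene (vertical axis), with its 95% confidence interval from limma, and dotted lines at 1.25-fold. The interval of Hmox1, from 0.03 to 0.50, is the only one of the 10 that does not hold 0, at an unadjusted p, and Gpx4 has the narrowest, from -0.13 to 0.12.

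The superoxide dismutases stood at like levels in both genotypes. Sod1, the copper-zinc enzyme of the cytosol, had 715, 779.5 and 796 TPM in Plscr5-/- libraries and 707, 752 and 791 TPM in wild-type libraries. Its lowest value in each genotype was that of replicate 1, and the ranges overlapped almost fully (log2 fold change 0.03, 95% confidence interval -0.12 to 0.18). Sod2, the manganese enzyme of mitochondria, had 111, 110.2 and 104 TPM in Plscr5-/- libraries and 94.6, 106.4 and 106.1 TPM in wild-type libraries. Wild type replicate 1 was the low library for Sod2, and 2 of the 3 Plscr5-/- values lay above all wild-type values (log2 fold change 0.08, interval -0.09 to 0.25). Sod2 had the second highest fold change among the members, and without wild type replicate 1 it was 0.03.

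Sod1 carried most of the dismutase transcript. Its share of the summed Sod1, Sod2 and Sod3 level was 87.2% ± 0.95 in Plscr5-/- libraries and 87.7% ± 0.36 in wild-type libraries (SD, n = 3 each). Sod2 held 12.4% ± 0.94 in Plscr5-/- libraries and 11.98% ± 0.33 in wild-type libraries. Sod3, the secreted enzyme, was at 2.95 ± 0.55 TPM in Plscr5-/- libraries and 2.41 ± 0.68 TPM in wild-type libraries, below 1% of the family in either genotype.

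Catalase and the glutathione peroxidases remove hydrogen peroxide and lipid peroxides, and each overlapped between genotypes. Cat, the peroxisomal enzyme, had 95.5, 91.2 and 93.1 TPM in Plscr5-/- libraries and 94.7, 89.5 and 88.7 TPM in wild-type libraries. The genotypes overlapped through wild type replicate 1 (log2 fold change 0.04, interval -0.11 to 0.19). Gpx1, a cytosolic selenoprotein, had 154.3, 153.9 and 174 TPM in Plscr5-/- libraries and 145, 154.9 and 162 TPM in wild-type libraries. Plscr5-/- replicate 3 was its highest library and the other values intermingled (log2 fold change 0.06, interval -0.12 to 0.24). Gpx4, the selenoprotein that reduces lipid hydroperoxides in membranes and holds back ferroptosis, had 355, 371 and 365 TPM in Plscr5-/- libraries and 367, 353 and 374.5 TPM in wild-type libraries. All 3 Plscr5-/- values lay between the lowest and the highest wild-type value, and the 6 libraries differed by a coefficient of variation of 2.33%, the lowest of the 10 genes. Its log2 fold change rounds to 0.00, with SE 0.05.

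Within the glutathione peroxidase family Gpx4 was the main transcript. It made up 50.2% ± 1.12 of the summed level in Plscr5-/- libraries and 50.5% ± 0.43 in wild-type libraries (SD, n = 3 each). Gpx1 made up 22.2% ± 1.11 in Plscr5-/- libraries and 21.3% ± 1.14 in wild-type libraries. The third by level was Gpx8, an enzyme of the endoplasmic reticulum, at 17.2% ± 0.11 in Plscr5-/- libraries and 18.0% ± 1.35 in wild-type libraries. Gpx2, Gpx3 and Gpx7 were lower, Gpx6 stayed under 1 TPM in all 6 libraries and Gpx5 was listed at 0 in all 6.

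The thioredoxin branch held the member with the lowest fold change, Txnrd1, which did not pass the test. Prdx1, a peroxiredoxin that reduces peroxides with electrons from thioredoxin, had 300.4, 353 and 347 TPM in Plscr5-/- libraries and 353, 322 and 331 TPM in wild-type libraries. Plscr5-/- replicate 1 was the low library, while the highest value, 353.1 TPM in Plscr5-/- replicate 2, and wild type replicate 1 at 352.8 TPM were nearly equal (log2 fold change -0.01, interval -0.19 to 0.17). Txnrd1, the cytosolic selenoprotein that keeps thioredoxin reduced, had 66.8, 58.05 and 59.4 TPM in Plscr5-/- libraries and 69.7, 62.8 and 67.0 TPM in wild-type libraries. Plscr5-/- replicates 2 and 3 lay below all wild-type values and Plscr5-/- replicate 1 did not. The log2 fold change of Txnrd1 was -0.11 (SE 0.08, interval -0.31 to 0.08), with an unadjusted limma p of 0.21.

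Peroxiredoxin transcript was spread over the family more evenly. Prdx2 was the highest peroxiredoxin, with 32.6% ± 0.83 of the family's summed level in Plscr5-/- libraries and 32.0% ± 0.75 in wild-type libraries, and Prdx1 followed with 26.4% ± 0.69 in Plscr5-/- libraries and 26.9% ± 0.94 in wild-type libraries (SD, n = 3 each). Among the thioredoxin reductases Txnrd1 held 70.9% ± 4.48 in Plscr5-/- libraries and 73.2% ± 2.49 in wild-type libraries. Its share differed by less than the spread between replicates.

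**Figure D3:**
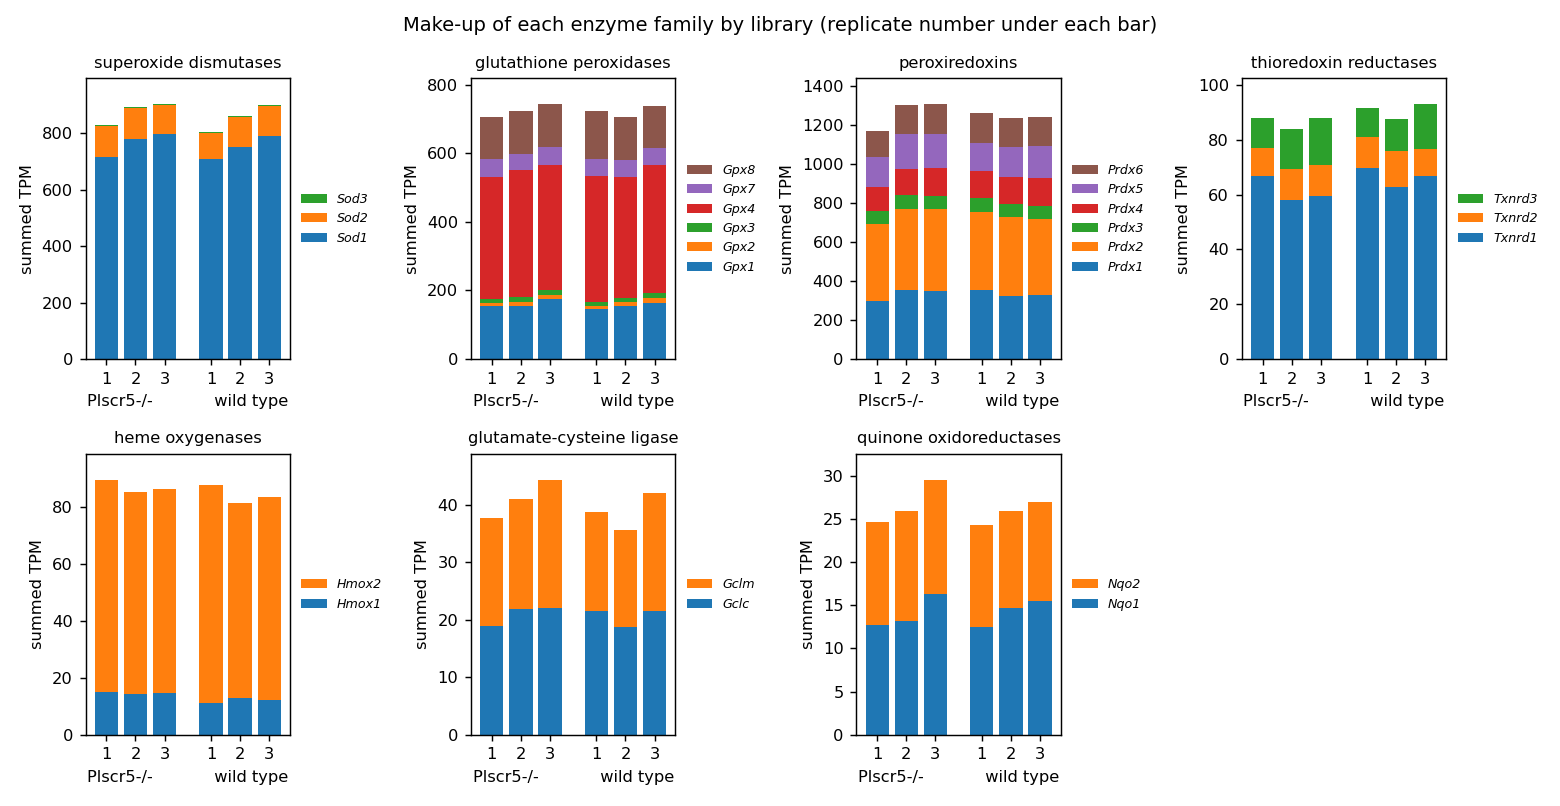
Summed TPM (vertical axes, from 0) of 7 enzyme families in each library, with the 3 Plscr5-/- libraries left of the 3 wild-type libraries, replicate numbers under the bars and colours for the family members that reached 1 TPM. Sod1 fills most of the dismutase bars, Gpx4 about the same share of the peroxidase bars in every library, and the Hmox1 part of the heme oxygenase bars is 14.4 to 15.2 TPM in Plscr5-/- and 11.3 to 13.1 TPM in wild-type libraries.

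Gclc and Nqo1 did not differ detectably. Gclc, the catalytic subunit of glutamate-cysteine ligase, the rate-limiting enzyme of glutathione synthesis, had 18.9, 21.8 and 22.1 TPM in Plscr5-/- libraries and 21.6, 18.8 and 21.5 TPM in wild-type libraries. Its low libraries were Plscr5-/- replicate 1 and wild type replicate 2 (log2 fold change 0.02, interval -0.23 to 0.26). Its regulatory partner Gclm stood at 20.1 ± 1.9 TPM in Plscr5-/- libraries and 18.2 ± 2.0 TPM in wild-type libraries, so that the subunits were present at nearly equal transcript levels. Nqo1, which reduces quinones with NADPH or NADH, had 12.7, 13.2 and 16.3 TPM in Plscr5-/- libraries and 12.5, 14.7 and 15.5 TPM in wild-type libraries. Replicate 3 was the highest library in each genotype, and Nqo1 had the widest spread within genotypes of the 10 genes (log2 fold change -0.02, interval -0.33 to 0.29). Its relative Nqo2 had 11.9, 12.7 and 13.3 TPM in Plscr5-/- libraries and 11.7, 11.1 and 11.4 TPM in wild-type libraries. Here the genotypes did not overlap, with Plscr5-/- higher, as at 4.6% of all features.

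Hmox1, the inducible heme oxygenase that breaks heme down to biliverdin, iron and carbon monoxide, was the member with the largest difference. It had 15.15, 14.4 and 14.8 TPM in Plscr5-/- libraries and 11.3, 13.05 and 12.1 TPM in wild-type libraries. Every Plscr5-/- value lay above every wild-type value, as at 4.6% of all features in that direction. The mean was 14.8 ± 0.39 TPM in Plscr5-/- libraries and 12.2 ± 0.88 TPM in wild-type libraries (SD, n = 3 each). Its log2 fold change of 0.26 (SE 0.10, interval 0.03 to 0.50) is a change of 20.0% in TPM + 1, with an unadjusted limma p of 0.0337 that ranked 445 of 17097 and an adjusted limma p of 0.989. Its exact permutation p, two-sided over the 6 values, was 0.1, and a design of 3 against 3 allows no smaller one. With single libraries left out the log2 fold change ran from 0.21 to 0.31.

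Hmox1 is abundant in cells that clear red blood cells, and markers of macrophages and of red blood cells are given beside it. Summed macrophage markers were at 135 to 160.2 TPM in Plscr5-/- libraries and at 142 to 150.4 TPM in wild-type libraries, with 7 of 10 fold changes positive and 3 negative. Summed red blood cell markers were at 446 to 1486 TPM in Plscr5-/- libraries and 916 to 1053 TPM in wild-type libraries, with the fold changes of all 6 tested markers negative. No matched member of either list was at 0 in every library. Both sums overlapped between genotypes. The Schwann cell and supporting cell sums given above did not. The Schwann cell sum was higher in Plscr5-/- libraries, narrowly (lowest 1532 TPM, against 1512 TPM in the highest wild-type library), and the supporting cell sum was lower. The part of any of these cell types in the Hmox1 difference was not tested. The constitutive heme oxygenase Hmox2 stood at 72.3 ± 1.9 TPM in Plscr5-/- libraries and 72.1 ± 4.1 TPM in wild-type libraries (log2 fold change 0.01), and Hmox1 made up 17.0% ± 0.15 of the summed pair in Plscr5-/- libraries and 14.5% ± 1.59 in wild-type libraries (SD, n = 3 each).

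The libraries that were highest and lowest differed from member to member. Wild type replicate 1 was the lowest library for 5 genes (Sod1, Sod2, Gpx1, Nqo1 and Hmox1) and the highest for Txnrd1. Plscr5-/- replicate 3 was the highest for 4 (Sod1, Gpx1, Nqo1 and Gclc) and Plscr5-/- replicate 1 for 3 (Sod2, Cat and Hmox1). Deviations from a gene's mean over the 6 libraries ran from -0.23 (Hmox1 in wild type replicate 1) to 0.19 (Nqo1 in Plscr5-/- replicate 3) on the log2(TPM + 1) scale. The median deviation over the 10 genes was between -0.04 and 0.07 in every library.

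**Figure D4:**
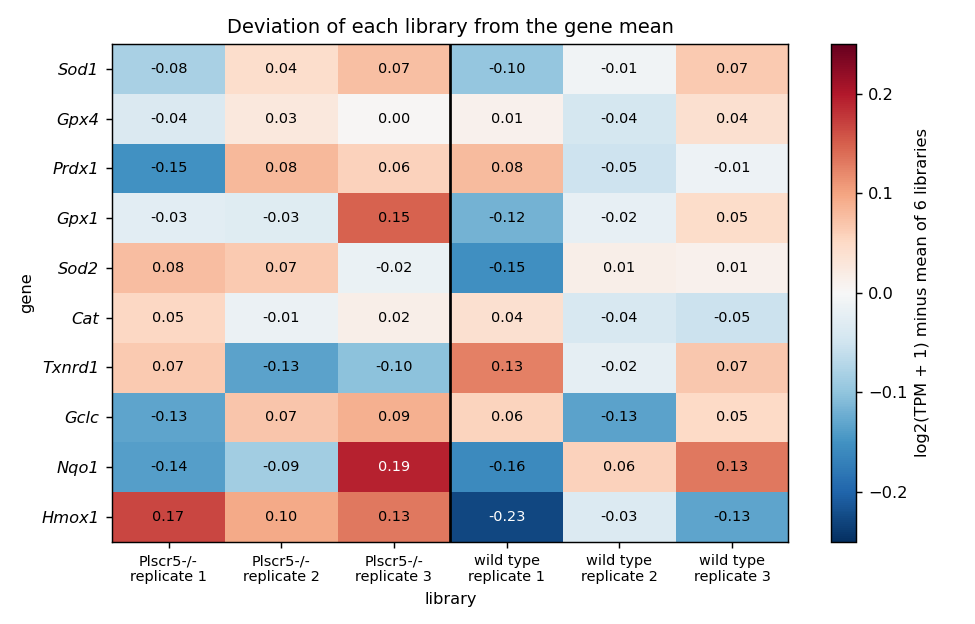
Deviation of log2(TPM + 1) in each library from the mean of the 6 libraries, for each gene (rows, by level) and library (columns, the 3 Plscr5-/- libraries left of the line and the 3 wild-type libraries right of it), with the value printed in each cell. Signs are mixed within libraries for most genes, and the Hmox1 row alone is positive in all 3 Plscr5-/- libraries and negative in all 3 wild-type libraries.

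Near-identical copies and overlapping genes were looked up for the members, and their effect on these values was not tested. In GENCODE M21 transcripts, copies with at least 90% identity over at least 300 bases were found for Sod1 (1), Gpx4 (2) and Prdx1 (3), and none for the other 7 genes. The highest of them, Gpx4-ps2, reached 1.58 TPM in its highest library, and the other copies stayed below 1 TPM, and how the authors' counting divided reads between copies is not given in the sources used here. Sod1 overlaps Scaf4 on the opposite strand, at 29.3 to 40.4 TPM in Plscr5-/- libraries and 35.6 to 39.96 TPM in wild-type libraries, and the strandedness of the counting is not given in the sources used here. Txnrd1 overlaps Eid3 on the same strand, which stayed below 1 TPM.

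In the wider antioxidant pathways no gene passed the test either. The 9 lists hold 110 genes, and of the 104 tested 53 were higher and 51 lower in the point estimate (median log2 fold change 0.01). The lowest adjusted limma p was 0.989, and 3 (2.88%) had an unadjusted p under 0.05, against 4.0% of all features. The genotypes did not overlap at 8 (7.69%), against 9.33% of all features, with 5 higher, against 4.6%, and 3 lower, against 4.74%. These shares are close to or below those of all features. Leaving out 1 library moved the fold change by over 1.5 times at 19 of the 26 genes named from these lists by their p.

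**Figure D5:**
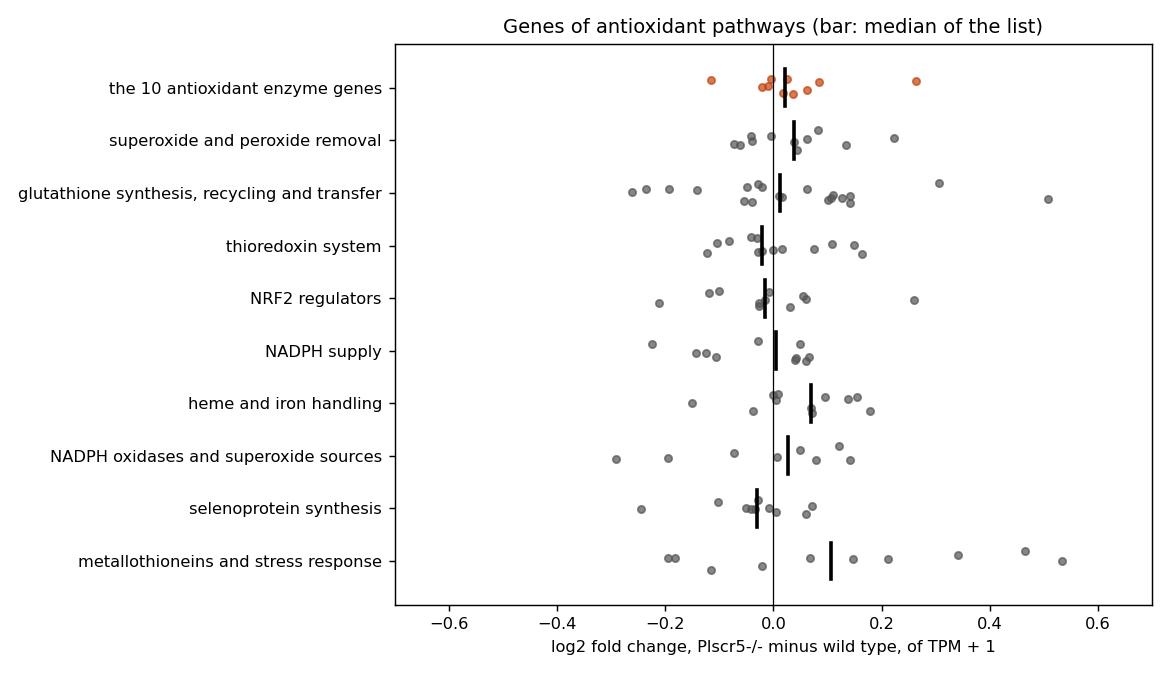
Log2 fold change of TPM + 1 between Plscr5-/- and wild-type libraries (horizontal axis) for the 10 antioxidant enzyme genes (top row, orange) and the tested genes of 9 pathway lists (grey), 1 point per gene, spread vertically only to separate points, with a bar at each list's median. The medians lie between -0.03 and 0.11, the highest being that of metallothioneins and stress response genes.

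Other enzymes that remove superoxide and peroxides were split, with 6 of 11 positive and 5 negative (median 0.04). Prdx5, a peroxiredoxin of mitochondria, peroxisomes and cytosol, was at 169 ± 12.9 TPM in Plscr5-/- libraries and 153 ± 10.2 TPM in wild-type libraries (log2 fold change 0.13). Park7, also known as DJ-1, was at 239 ± 15.7 TPM in Plscr5-/- libraries and 226 ± 12.7 TPM in wild-type libraries. These and Sod3, described above, had the smallest p of the list, and none passed.

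Among genes that make, recycle or use glutathione, 11 of 20 were positive and 9 negative (median 0.01). Gsr, the reductase that returns oxidised glutathione to its reduced form, had 23.4, 22.4 and 21.2 TPM in Plscr5-/- libraries and 24.2, 28.4 and 26.9 TPM in wild-type libraries. The genotypes did not overlap at Gsr, and its log2 fold change was -0.24 (SE 0.10), with an unadjusted limma p of 0.0389 and an adjusted limma p of 0.989. Gss, which adds glycine in the last step of glutathione synthesis, was at 19.6 ± 1.7 TPM in Plscr5-/- libraries and 22.5 ± 1.6 TPM in wild-type libraries (log2 fold change -0.19). Chac1, which degrades glutathione, was at 1.90 ± 0.19 TPM in Plscr5-/- libraries and 1.09 ± 0.57 TPM in wild-type libraries, near the filter, without overlap (log2 fold change 0.51, interval -0.05 to 1.07, and 0.28 without wild type replicate 3).

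Among 13 genes of the thioredoxin system 5 were positive and 8 negative (median -0.02). Msra, a methionine sulfoxide reductase, was at 11.3 ± 1.1 TPM in Plscr5-/- libraries and 10.1 ± 0.92 TPM in wild-type libraries. Txn1, the cytosolic thioredoxin that Txnrd1 reduces, was at 164 ± 9.1 TPM in Plscr5-/- libraries and 155 ± 5.1 TPM in wild-type libraries. Srxn1, which repairs overoxidised peroxiredoxins, was at 13.3 ± 0.42 TPM in Plscr5-/- libraries and 11.99 ± 2.9 TPM in wild-type libraries, and without wild type replicate 3, at 8.93 TPM, its sign changed to -0.02. The 3 genes overlapped between genotypes.

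Regulators of NRF2 signalling were 4 positive and 7 negative of 11 (median -0.02). Nfe2l2, which encodes NRF2, stood at 39.1 ± 1.4 TPM in Plscr5-/- libraries and 39.9 ± 3.4 TPM in wild-type libraries, and Keap1, its inhibitor, at 43.6 ± 4.1 TPM in Plscr5-/- libraries and 41.7 ± 1.2 TPM in wild-type libraries. Nfe2l2 and Keap1 were picked with their values known. The smallest p of this list belonged to Nfe2l1, a relative of NRF2, at 105 ± 9.6 TPM in Plscr5-/- libraries and 114 ± 2.1 TPM in wild-type libraries, and to the small Maf partners Maff (log2 fold change 0.26) and Mafg (-0.21). The fold changes of Maff and Mafg had opposite signs, and that of Mafg ran from -0.388 without Plscr5-/- replicate 1 to -0.046 without Plscr5-/- replicate 2.

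NADPH supply was even, with 5 of 10 positive and 5 negative (median 0.01). G6pdx, which opens the pentose phosphate pathway, had 48.25, 52.6 and 50.5 TPM in Plscr5-/- libraries and 52.5, 59.3 and 66.1 TPM in wild-type libraries. Of the Plscr5-/- values only that of replicate 2 exceeded the lowest wild-type value, and the log2 fold change was -0.22 (SE 0.10, interval -0.45 to 0.00). The malic enzymes Me1 and Me2 had log2 fold changes of -0.12 and -0.14, Me1 without overlap between genotypes.

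Genes of heme and iron handling were 8 positive and 3 negative of 11 (median 0.07). Alas1, the first and rate-limiting enzyme of heme synthesis, had 83.4, 80.7 and 77.7 TPM in Plscr5-/- libraries and 71.2, 77.3 and 71.0 TPM in wild-type libraries. Blvrb, which reduces biliverdin and was named after its values were seen, had 33.5, 35.7 and 33.2 TPM in Plscr5-/- libraries and 31.4, 32.65 and 31.6 TPM in wild-type libraries. At these 2 of the 11 genes the genotypes did not overlap, with Plscr5-/- higher, as at 4.6% of all features, and the log2 fold changes were 0.14 (interval -0.03 to 0.30) for Alas1 and 0.09 (interval -0.09 to 0.27) for Blvrb. The other biliverdin reductase Blvra and Fech, which completes heme synthesis, overlapped, with log2 fold changes of 0.01 and -0.00, and were likewise picked with their values known. Fth1, the ferritin heavy chain that stores iron, was at 1362 ± 56.6 TPM in Plscr5-/- libraries and 1227 ± 127 TPM in wild-type libraries, with overlap. Tfrc, the transferrin receptor, was at 32.1 ± 2.7 TPM in Plscr5-/- libraries and 28.4 ± 4.3 TPM in wild-type libraries, and none of these genes passed the test.

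Of 13 genes of NADPH oxidases and other superoxide sources 8 were tested, 5 positive and 3 negative (median 0.03), while Nox1, Nox3, Ncf4, Duox1 and Duox2 did not pass the filter. Xdh, xanthine dehydrogenase, had 2.1, 2.0 and 2.07 TPM in Plscr5-/- libraries and 2.57, 2.79 and 2.87 TPM in wild-type libraries. The genotypes were apart at this low level (log2 fold change -0.29, interval -0.64 to 0.06). Noxa1, an activating subunit of NADPH oxidases, overlapped between genotypes (log2 fold change 0.14, and 0.018 without Plscr5-/- replicate 1).

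Selenoprotein synthesis, on which Gpx1, Gpx4 and Txnrd1 depend, had 3 of 10 genes positive and 7 negative (median -0.03). Pstk, the kinase that acts on the selenocysteine transfer RNA, was at 42.2 ± 2.1 TPM in Plscr5-/- libraries and 50.5 ± 6.6 TPM in wild-type libraries (log2 fold change -0.25, interval -0.49 to 0.00). The genotypes overlapped only through Plscr5-/- replicate 2 at 44.17 TPM and wild type replicate 3 at 44.15 TPM. Sepsecs, which converts the product of Pstk to selenocysteine, had a log2 fold change of -0.10, and Selenop, the selenium transport protein, one of -0.04.

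Metallothioneins, small metal-binding proteins that also react with oxidants, had the largest positive fold changes of the pathway genes beside Chac1. Mt3 had 57.2, 58.5 and 56.2 TPM in Plscr5-/- libraries and 39.65, 54.3 and 42.45 TPM in wild-type libraries. Mt1 had 39.2, 55.3 and 52.1 TPM in Plscr5-/- libraries and 34.2, 43.4 and 28.3 TPM in wild-type libraries. Mt2 had 14.5, 21.0 and 28.1 TPM in Plscr5-/- libraries and 14.01, 17.2 and 10.98 TPM in wild-type libraries. The genotypes were apart at Mt3 and overlapped at Mt1 and Mt2, and wild type replicate 3 was the lowest library for Mt1 and Mt2. Their log2 fold changes were 0.34 (SE 0.12) for Mt3, 0.46 (SE 0.18) for Mt1 and 0.53 (SE 0.25) for Mt2, with unadjusted limma p of 0.0205, 0.0333 and 0.0649 and an adjusted limma p of 0.989 for each. Without Plscr5-/- replicate 3 the log2 fold change of Mt2 was 0.31. Without wild type replicate 3 the log2 fold change was 0.38 for Mt2, 0.32 for Mt1 and 0.30 for Mt3. For Mt3 the lowest with a single library left out was 0.25, without wild type replicate 1. Summed neuron markers were at 814.5, 750.4 and 608.5 TPM in Plscr5-/- libraries and at 523.5, 650.5 and 242.1 TPM in wild-type libraries, with 9 of 10 fold changes positive (median 0.83) and wild type replicate 3 lowest, and their part in these differences was not tested. In the whole list of metallothioneins and stress response genes 6 of 10 tested genes were positive and 4 negative (median 0.11).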

How the data were processed

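RNA of cochleae was sequenced in 6 libraries, and genotype labels set the groups. The deposited values are TPM with 2 decimals, a unit read from the values, which sum to 1000000 per library, so no depth or counting interval can be given. The submitters' processing notes name mm8 and DESeq2 without saying what for. No source used here gives the aligner, quantifier or annotation. GENCODE M21 named 52083 of 55769 IDs. Of 217 list genes 215 matched 1 ID, Ahsp matched none and the first of 2 IDs was used for Nnt.

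The filter on low values was 1 TPM in 3 libraries. Genotype effects on log2(TPM + 1) were estimated in limma 3.58.1 (R 4.3.3, trend and robust moderation), and Benjamini-Hochberg adjustment covered all 17097 features at a threshold of 0.05. BLAST found copies in GENCODE M21 transcripts. Named are the 10 members and the 3 genes of each pathway list with the smallest p, of which 1 is not reported here. Relatives of the members in their enzyme families (such as Gclm, Gpx8, Prdx2, Hmox2 and Nqo2) were picked once their values were known. So were Nfe2l2, Keap1, Blvra, Blvrb, Fech and the marker Tectb. The members and lists were chosen with earlier results of these data known. Alternatives changed the filter, the pseudocount, the scaling or the variance model, added a replicate block, or left out single libraries.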

Additional observations from a re-analysis of the deposited data

How the results depend on the processing

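Of the 10 members, 0 passed in any of 14 alternative settings, with adjusted limma p for Hmox1 from 0.669 to 1, and 0 other pathway genes passed. The members' median log2 fold change stayed within their spread (-0.01 to 0.07 with single libraries left out), and the number with a positive value ran from 4 without Plscr5-/- replicate 3 to 9 without Plscr5-/- replicate 1. Of 140 checks on members 124 kept sign and call and 16 changed sign. Under upper quartile scaling Gpx4 was at 0.0062 and Prdx1 at 0.00012. With single libraries left out Gpx4 ran from -0.027 to 0.015, Prdx1 from -0.053 to 0.063, Nqo1 from -0.12 to 0.043, Gclc from -0.044 to 0.088 and Sod1 from -0.016 to 0.072, and of the other named genes Srxn1 ran from -0.017 to 0.31. All 9 neighbouring pairs of the level order held whichever library was left out. Over all features, 2 were lower and 0 higher (684 at an unadjusted p under 0.05). The count lower was 0 without a filter, 0 without trend and robust moderation, 1 under upper quartile scaling and 1 with haemoglobin and mitochondrially encoded genes removed, and with single libraries left out it ran from 0 to 3 and the count higher from 0 to 2. The cause was not tested. Samples that share a replicate number deviated together for numbers 1 and 3 (r = 0.19 and 0.24) but not 2 (-0.05). Between libraries of unlike numbers r ran from -0.27 to 0.13. These values do not settle whether the numbers mark pairs, and the main fit did not take them as pairs. With the replicate block 0 features were lower (1250 at an unadjusted p under 0.05).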
